A study of Mus musculus with 4 samples.

Results

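The regions described here were stretches of open chromatin at least 2000 bp wide that held an ATAC-seq peak in all 4 libraries of mouse embryonic palate. Overlapping peaks of chromosomes 1 to 19 and X, with 1 bp or more in common, were joined over all libraries, and members were chosen by the joined width from the first to the last base. There were 638 such broad regions among 18904 regions held by all 4 libraries, which are called shared regions, and among 39843 joined regions in all. Comparisons of their width and peak values with narrower regions are therefore descriptions, without a test. The rule did not use genotype, and differences between genotypes were tested. The width tested also enters the merged width, however, so a region wide in only 1 genotype could become a member through that genotype.

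The study asked whether Shox2, a homeobox transcription factor gene of the anterior palate, is needed for the accessible chromatin of its own lineage. GFP-positive palatal mesenchyme was sorted at E14.5 from Shox2Cre/-;Nkx2.5F/F;R26RmTmG mutants and Shox2Cre/+;Nkx2.5F/F;R26RmTmG controls, with 2 libraries per genotype and 50000 cells pooled for each group. Mutants had no intact Shox2 allele and controls had 1, since the Cre is inserted at Shox2. Both genotypes carried the mTmG reporter, which turns green after Cre acts, and 2 floxed alleles of Nkx2-5, a homeobox gene of the heart. The controls were therefore not wild type, although their titles say WT, and the loss of Nkx2-5 in the sorted cells was not measured. Cells without a history of Shox2-driven Cre were not sampled.

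Accessible chromatin is DNA that nucleosomes leave open to enzymes, and in ATAC-seq a transposase cuts it and adds sequencing adapters. In most mammalian cells the open stretch at a promoter is a short nucleosome-depleted gap. CpG islands, which are stretches rich in the dinucleotide CG, often carry longer open domains, and such domains are common at genes of developmental regulators.

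The promoter sequences below show what lay under the widest broad regions with a protein-coding start in the promoter table, with 3 more chosen after their values were seen. Each runs from 250 bases before to 50 bases after a gene start, on the strand of the gene, and CG dinucleotides are in capitals (RefSeq, GRCm38.p6, the build of mm10). Pcdh7 encodes a protocadherin (chr5:57717831-57718130, plus strand). Cdk6 encodes a kinase of the early cell cycle (chr5:3343643-3343942, plus strand). Samd4 encodes an RNA-binding translational repressor (chr14:46882715-46883014, plus strand), and Fat3 a giant cadherin (chr9:16502005-16502304, minus strand). Sox12 is the palate transcription factor gene with the widest region (chr2:152397997-152398296, minus strand), and Fgf10 encodes a growth factor of the anterior palate (chr13:118714449-118714748, plus strand). Tmub1, which encodes a ubiquitin-like membrane protein, had the narrowest shared region with a start and is shown for contrast (chr5:24447797-24448096, minus strand).
Pcdh7: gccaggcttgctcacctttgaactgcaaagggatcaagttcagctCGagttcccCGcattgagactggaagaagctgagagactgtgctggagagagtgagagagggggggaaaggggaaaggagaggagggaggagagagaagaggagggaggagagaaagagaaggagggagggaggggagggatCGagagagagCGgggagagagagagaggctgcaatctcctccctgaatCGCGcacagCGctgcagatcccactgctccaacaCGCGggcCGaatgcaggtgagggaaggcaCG
Cdk6: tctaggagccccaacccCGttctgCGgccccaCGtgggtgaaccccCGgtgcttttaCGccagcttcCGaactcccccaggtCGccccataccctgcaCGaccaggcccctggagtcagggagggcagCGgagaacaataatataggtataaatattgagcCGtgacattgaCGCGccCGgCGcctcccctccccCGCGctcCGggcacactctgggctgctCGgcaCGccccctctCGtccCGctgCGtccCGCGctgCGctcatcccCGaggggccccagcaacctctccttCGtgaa
Samd4: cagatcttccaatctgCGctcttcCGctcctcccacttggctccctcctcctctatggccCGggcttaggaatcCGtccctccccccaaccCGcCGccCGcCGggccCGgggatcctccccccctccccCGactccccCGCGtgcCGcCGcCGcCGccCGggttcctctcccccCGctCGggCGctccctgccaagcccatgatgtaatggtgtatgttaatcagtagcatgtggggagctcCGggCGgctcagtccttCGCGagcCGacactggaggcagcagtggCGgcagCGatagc
Fat3: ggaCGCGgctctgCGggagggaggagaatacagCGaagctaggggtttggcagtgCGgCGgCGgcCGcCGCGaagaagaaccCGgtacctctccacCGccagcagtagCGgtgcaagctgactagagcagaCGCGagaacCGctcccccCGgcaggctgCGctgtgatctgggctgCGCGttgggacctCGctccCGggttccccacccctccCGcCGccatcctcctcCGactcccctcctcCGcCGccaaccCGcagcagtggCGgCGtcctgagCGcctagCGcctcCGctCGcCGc
Sox12: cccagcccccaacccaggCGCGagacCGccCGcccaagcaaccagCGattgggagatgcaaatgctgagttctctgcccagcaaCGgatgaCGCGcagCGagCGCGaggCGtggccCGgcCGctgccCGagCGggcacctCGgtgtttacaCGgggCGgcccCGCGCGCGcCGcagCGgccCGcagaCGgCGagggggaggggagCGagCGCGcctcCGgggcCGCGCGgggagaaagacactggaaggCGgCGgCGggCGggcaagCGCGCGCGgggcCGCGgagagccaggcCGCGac
Fgf10: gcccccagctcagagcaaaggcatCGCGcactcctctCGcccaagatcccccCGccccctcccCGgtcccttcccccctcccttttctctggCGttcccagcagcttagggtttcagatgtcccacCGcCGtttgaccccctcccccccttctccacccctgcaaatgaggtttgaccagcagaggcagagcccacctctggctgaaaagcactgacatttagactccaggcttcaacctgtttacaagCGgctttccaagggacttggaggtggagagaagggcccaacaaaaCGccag
Tmub1: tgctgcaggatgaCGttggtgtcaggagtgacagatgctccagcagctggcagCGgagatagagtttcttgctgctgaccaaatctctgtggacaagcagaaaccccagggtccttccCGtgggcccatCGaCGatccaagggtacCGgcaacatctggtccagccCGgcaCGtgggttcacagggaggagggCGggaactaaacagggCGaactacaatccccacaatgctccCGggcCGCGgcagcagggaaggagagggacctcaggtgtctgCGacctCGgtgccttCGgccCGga
CpG content differed widely among these broad promoters. Sox12 had 47 CG dinucleotides in 300 bases, 1.07 times the number its base composition predicts, and Fat3 had 35, a ratio of 0.925. Cdk6 and Samd4 each had 27, at ratios of 0.851 and 0.795. Pcdh7, under the widest region of all, had 11 and a ratio of 0.493, and Fgf10 had 10 and a ratio of 0.394. Tmub1 had 17 and a ratio of 0.6, above both Pcdh7 and Fgf10.

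The whole peak lists held 29225 and 31832 peaks in mutants 1 and 2 and 30239 and 22966 in controls 1 and 2, and control 2 had the shortest list. Read depth is unknown. Of 77 transcription factor genes of palate mesenchyme, 39 (50.6%) had a shared region at their start, as did 52.1% of all protein-coding genes. Among markers of other cells that a sort could hold, 6 of 14 neuronal, 3 of 10 Schwann and glial, 1 of 12 skeletal muscle, 3 of 12 endothelial, 1 of 12 blood and immune, 4 of 14 epithelial and 4 of 10 pericyte and smooth muscle genes had one. An open start does not show that a gene is transcribed, and in bulk cells fewer cells with an open region and less signal per cell cannot be told apart. No broad region lay within 5 kb of Shox2 or Nkx2-5. Of the regions there, the widest was at Nkx2-5 (chr17:26838593-26840423), at 1831 bp and with a peak in all 4 libraries.

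The broad regions formed the tail of a continuous distribution of widths. Their median merged width was 2183 bp and the middle 50% lay between 2074 and 2346 bp, with a highest value of 3874 bp. The narrowest members were at Cpne8, a copine gene, and Stk35, a kinase gene, at 2000 bp each, and at Ephb2, a receptor of ephrins, at 2001 bp. Just outside were Uck2, a uridine kinase gene, Zfpm2, a cofactor gene of GATA factors, and Impa2, an inositol phosphatase gene, at 1999 bp each.

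**Figure D1:**
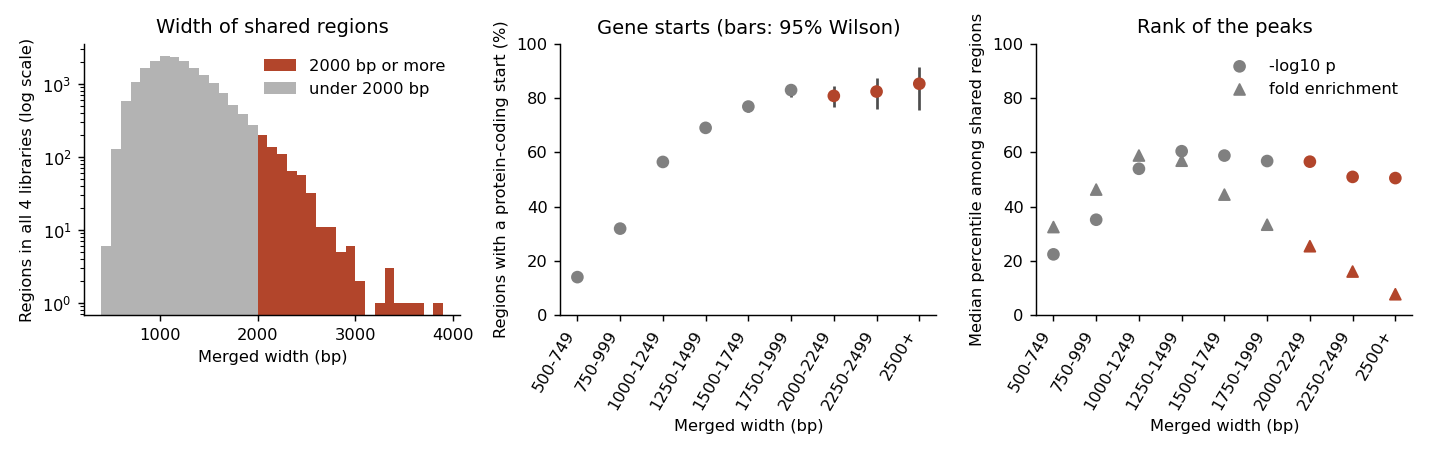
The left panel counts shared regions by merged width in bp, on a log scale, with those of 2000 bp or more in red and narrower ones in grey. The middle panel gives the percent with a protein-coding start by width with 95% Wilson intervals, 14.0% at 500 to 749 bp and 85.3% at 2500 bp or more, and the right panel the median percentile of their peaks by −log10 p (circles) and by fold enrichment (triangles).

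How far a broad region was broad in each library depended on the region. In 151 of 638 regions (23.7%) each library's own peaks spanned 2000 bp or more, and in 91, 99 and 205 regions this held for exactly 3, 2 and 1 libraries. In the remaining 92 regions (14.4%) no library reached 2000 bp alone, and the width came from merging. A single peak in every library made up 480 regions (75.2%), while 158 were split into more than 1 peak in at least 1 library. Bases under peaks of all 4 libraries made up a median of 75.01% of the merged width, against 76.6% in narrower shared regions. At 103 broad regions these common bases alone reached 2000, and at 4 regions, with Tgif1, Rai1, Clstn1 and Tln2, there were none. Of the 99 regions that reached 2000 bp in exactly 2 libraries, 24 did so in both mutants and neither control and 7 in both controls and neither mutant. Control 1 was paired in this way with mutant 1 in 22 regions and with mutant 2 in 25, and control 2 in 8 and 13, so pairs with control 2 were the rarer ones.

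The median number of bases under a library's own peaks was 1983 and 2024.5 in mutants 1 and 2, and 1985.5 and 1885 in controls 1 and 2. Control 2 was the lowest, and the genotypes overlapped. The difference of the genotype means was 68.5 bp (mutant minus control; exact permutation test over libraries, two-sided p = 0.667, where 2 against 2 allows no p under 0.3333). Broad regions held 4.55% and 4.28% of all peak bases in the mutants and 4.42% and 5.22% in the controls, a difference of −0.407 percentage points (exact p = 0.667). Here control 2 stood above the other 3 libraries, and the genotypes overlapped again. With the same number of top-ranked peaks from each library the difference was 0.108 (exact p = 0.3333), and without control 2 it was 0.00265. Its sign thus changed under both of these settings, and the cause was not tested.

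**Figure D2:**
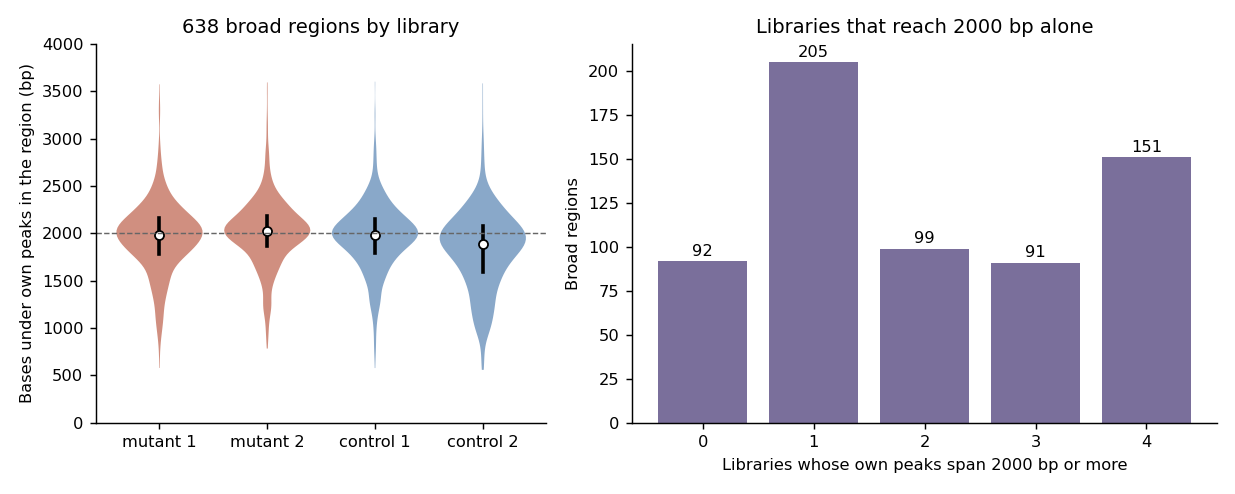
The left panel shows bases under each library's own peaks within the 638 broad regions, mutants in red and controls in blue, with the median as a white point and the middle 50% as a bar; the dashed line marks 2000 bp. The right panel counts the broad regions by the number of libraries whose own peaks span 2000 bp or more, which is 0 for 92 regions and 4 for 151.

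Broad peaks were wide rather than sharply enriched. The median fold enrichment that the authors' lists give was 5.88 and 6.03 over the broad regions in the mutants and 6.18 and 5.75 in the controls. In narrower shared regions it was 7.63 and 8.005 in the mutants and 8.21 and 7.41 in the controls. Ranked among shared regions within each library, the broad ones had a median percentile of 20.6 by fold enrichment and 54.0 by −log10 p, against 49.98 and 48.8 in narrower regions. Among regions with a protein-coding start, the order by −log10 p turned, with 55.6 in broad and 67.1 in narrower ones. By fold enrichment the percentiles at such starts were 21.5 and 62.9. These values come from the same peaks as the width and are a description.

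Among the widest members the extent varied from library to library at some regions and was close at others. At Pcdh7 (chr5:57714707-57718580, 3874 bp) peaks covered 2571 and 3487 bp in the mutants and 1924 and 3160 bp in the controls. Both low values came from the libraries numbered 1, and the genotypes overlapped. At Cdk6 (chr5:3341216-3344768, 3553 bp) they covered 3378 and 2824 bp in the mutants and 2824 and 1547 bp in the controls. At Hivep2, a zinc finger factor gene (chr10:13964548-13967903, 3356 bp), all 4 libraries were close, with 3317 and 3123 bp in the mutants and 3248 and 2972 bp in the controls. The genotypes touched at Cdk6 and overlapped at Hivep2. At Samd4 (chr14:46882021-46885433, 3413 bp) they covered 2853 and 3131 bp in the mutants and 2165 and 2382 bp in the controls, and at Kmt2a, a histone methyltransferase gene (chr9:44880392-44883359, 2968 bp), 2731 and 2863 bp in the mutants and 2356 and 2146 bp in the controls. Neither gene's genotypes overlapped (log2 differences 0.37 ± 0.11 SE and 0.29 ± 0.10 SE, limma adjusted p = 0.938 for both). Samd4, Kmt2a and Fat3 (3380 bp) had 61.8%, 72.3% and 37.1% of their width under peaks of all 4 libraries. Col27a1, a fibrillar collagen gene of cartilage (3274 bp), and Basp1, a gene of a membrane protein of growth cones (3091 bp), had 80.6% and 91.5%. Regions at Cpeb2, of an RNA-binding translation regulator (3025 bp), and Nsd1, of another histone methyltransferase (2968 bp), lay inside the gene without a listed start, with 94.0% and 73.3% in common.

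The region second in width (chr17:39843121-39846722, 3602 bp) overlapped no protein-coding gene but Rn18s-rs5, a pseudogene related to ribosomal RNA. Its peaks covered 3574 and 3594 bp in the mutants and 3602 and 3584 bp in the controls, and 99.1% of its width was common. Its fold enrichments of 2.43 and 2.43 in the mutants and 2.35 and 2.39 in the controls were far below the broad median, while it ranked at the 98.8th percentile or above by −log10 p. Reads of ribosomal RNA genes match several near-identical copies, so the value at Rn18s-rs5 is uncertain. The remaining member of the 12 widest (chr9:124422632-124425986, 3355 bp) held the start of LOC108167694, a gene without a known role, with 97.4% in common.

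Gene starts lay in most broad regions. Of the 638, 522 (81.8%, 95% Wilson interval 78.6% to 84.6%) held the start of a protein-coding gene, against 9917 of 18266 narrower shared regions (54.3%) and 55.2% of all shared regions. A further 15 broad regions held the start of another kind of gene, 73 lay inside a gene and 28 lay outside genes. The share with a start climbed with width up to about 1750 bp and then levelled: it was 14.0% at 500 to 749 bp, 56.5% at 1000 to 1249 bp, 76.9% at 1500 to 1749 bp and 83.0% at 1750 to 1999 bp. Within the broad regions it was 80.9% at 2000 to 2249 bp, 82.5% at 2250 to 2499 bp and 85.3% above. The intervals of those last 4 classes overlapped, so the 2000 bp threshold marks no step in this share. Intervals cover counting error only, and regions are not independent replicates. A wider region also covers more sequence in which a start can fall, and these shares do not allow for it.

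Broad regions did not often span neighbouring genes. Of those with a start, 58 (11.1%) held starts of more than 1 gene and 38 (7.28%) held starts on both strands, against 9.80% and 7.33% of narrower regions with a start. Ncor1, a corepressor gene of nuclear receptors, with Pigl, an enzyme gene of membrane anchor synthesis, and Hnrnpa2b1, an RNA-binding protein gene, with Cbx3, a heterochromatin protein gene, are pairs within 1 region. More than 1 listed start, in 1 gene or several, was found in 113 (21.6%) of the broad regions with a start and in 15.6% of the narrower ones. Here, too, the greater width was not allowed for. Genes with a broad region at the start were long: their median length was 53.0 kb, against 25.8 kb for genes with a narrower shared region and 9.74 kb for genes with none. In the promoter table, 29.96% of them had more than 1 start, against 20.4% and 10.3%.

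The extra width lay on both sides of the start and more of it lay downstream. In 365 broad regions with 1 gene and 1 strand, the region reached a median of 808 bp upstream and 1429 bp downstream of the start, against 483 and 717 bp in 7412 narrower ones. Where a gene had several listed starts in the region, the most upstream one was used. That choice lengthens the downstream reach and shortens the upstream one, and several starts were more frequent in broad regions. The downstream side took a median of 64.5% of the width in broad regions and 59.3% in narrower regions. The reach downstream was the larger one in 71.5% of broad regions and 73.7% of narrower regions. Peak summits, the points of highest signal, were less tightly placed: their median over the libraries lay within 250 bp of the start in 57.3% of broad regions and 88.3% of narrower ones. Summits lay further than that downstream in 21.6% and upstream in 21.1% of broad regions, against 7.18% and 4.48%. The strongest summits of the 4 libraries spread over a median of 140.5 bp in broad regions and 98 bp in narrower ones, and over more than 500 bp in 115 broad regions (18.03%) and 1.599% of narrower ones. Members were chosen by width, and a wider region leaves more room for summits to lie apart. These summit values do not allow for that.

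**Figure D3:**
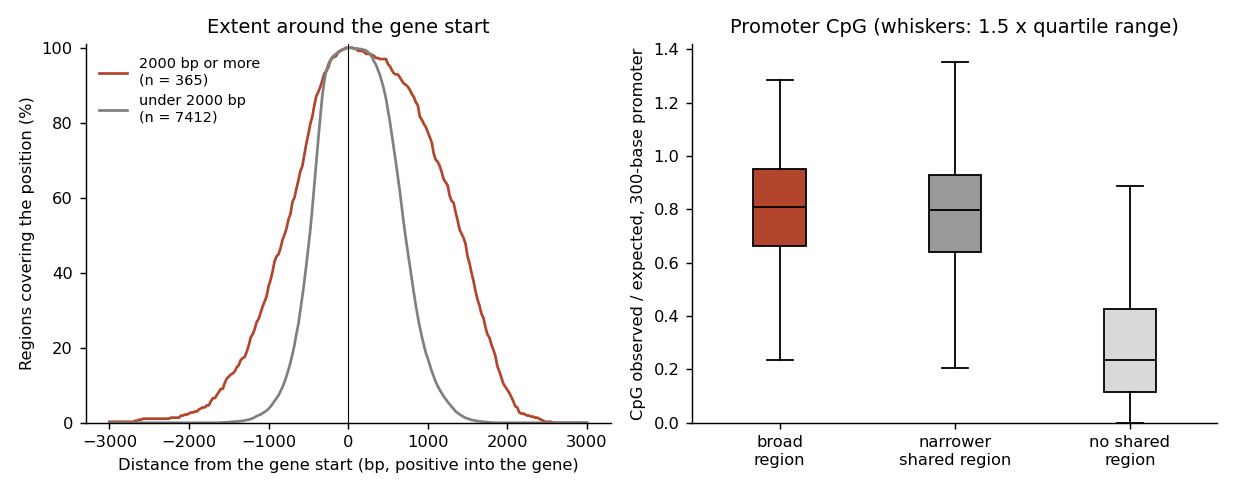
The left panel gives the percent of regions with a start of 1 gene on 1 strand that cover each distance from it in bp, positive into the gene, for 365 broad regions (red) and 7412 narrower ones (grey). The right panel shows the observed over expected CpG of 300-base promoters in broad regions, narrower shared regions and no shared region, whose means are 0.791, 0.772 and 0.306; boxes hold the middle 50% and the line is the median.

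The promoter table held 565 promoters of 454 genes with a start in a broad region. Their GC content averaged 66.6% ± 9.59 (SD over promoters), against 62.3% ± 8.56 over 10235 promoters in narrower shared regions and 49.9% ± 10.5 over 10244 in none. The observed over expected CpG ratio averaged 0.791 ± 0.227 in broad regions, 0.772 ± 0.221 in narrower ones and 0.306 ± 0.260 in none. A ratio above 0.6, a common mark of CpG islands, was found in 80.9%, 79.5% and 14.9% of them. The means of the broad and the narrower promoters were closer to each other than to the mean of promoters without a shared region, in GC content as in CpG ratio. In narrower regions of 1500 to 1999 bp the ratio was 0.806 ± 0.220, and in those under 1000 bp 0.691 ± 0.235.

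Short sequence motifs were counted on both strands of the same promoters. GGGCGG, the GC box of SP and KLF factors, was in 76.6% of promoters in broad regions, 70.0% in narrower ones, 21.7% in none and 46.7% of all 21044. CCAAT, the NF-Y box, was in 28.5% of broad, 40.0% of narrower, 37.5% of unshared and 38.5% of all promoters, and its share went down with width, from 48.8% under 1000 bp to 40.4% at 1000 to 1499 bp and 34.3% at 1500 to 1999 bp. The ETS motif CCGGAAG was in 9.03% of broad, 19.8% of narrower and 11.7% of all promoters, and the NRF1 core GCATGCG in 3.19%, 7.26% and 4.47%. TGACGT of CREB and ATF factors was in 9.56%, 12.9% and 8.58%, and AAGATGG of YY1 in 4.07%, 7.27% and 6.28%. The TATA box TATAAA was in 6.02%, 5.49% and 12.7%, and the AP-1 motif TGANTCA in 2.65%, 3.81% and 7.04%. TAATTA, which homeodomain proteins such as Shox2 can bind, was in 1.59%, 1.964% and 4.47%. The E-box CANNTG was in 56.6%, 61.0% and 69.0%, and GGAATG of TEAD factors in 8.32%, 11.03% and 13.5%. The GC box and the ETS, NRF1 and CREB motifs contain CG and so overlap with the CpG counts, and none of these matches shows binding.

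Genes of signalling and of mesenchymal regulation held broad regions in differing numbers. Over all protein-coding genes, 579 of 11261 genes with a shared region at the start (5.14%) had a broad one, and the median width of the region was 1291 bp. Counts for each list are set beside that share and carry no test, since the lists were chosen with earlier results known.

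Palate mesenchyme transcription factors had a broad region in 8 of 39 genes with a shared start (20.5%), and the median width over the 39 was 1594 bp. The 8 were the Sox factor genes Sox12 and Sox11, Zeb1, of a repressor of epithelial genes, Six4, Meis1, Nfib, Twist1 and Foxd1. At Sox12 (chr2:152396888-152399434) peaks covered 1683 and 2103 bp in the mutants and 2547 and 2061 bp in the controls. At Zeb1 (chr18:5591197-5593571) they covered 2172 and 2375 bp in the mutants and 2272 and 2037 bp in the controls, and at Six4 (chr12:73111362-73113729) 2295 and 2058 bp in the mutants and 2088 and 1820 bp in the controls. The genotypes overlapped at each of these 3 genes. Dlx and other homeobox genes, a list without the homeobox genes Six4 and Meis1, had no broad region among 13 genes with a shared start. So small a list cannot tell such a count from the share of 5.14% over all genes. None of 39 Hox genes had a shared region at the start at all.

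The FGF pathway, in which mesenchymal Fgf10 signals to the overlying palate epithelium, had a broad region in 4 of 14 genes (28.6%; median width 1734.5 bp). They were the ligand gene Fgf10 and 3 genes of feedback inhibitors, Dusp6, Spred2 and Spry4. Fgf10 was also the single broad gene among 8 anterior palate genes with a shared start, while 0 of 5 posterior ones had a broad region. At Fgf10 (chr13:118714036-118716722, 2687 bp) peaks covered 2624 and 2654 bp in the mutants and 2678 and 2533 bp in the controls. The 4 libraries were close to each other, the genotypes overlapped, and 92.3% of the width was common. At Dusp6 (chr10:99261503-99264125), which encodes a phosphatase of ERK kinases, they covered 2317 and 2562 bp in the mutants and 1310 and 2300 bp in the controls, where control 1 stood lowest and the genotypes did not overlap (log2 difference 0.47 ± 0.29 SE, limma adjusted p = 0.938). At Spred2 (chr11:19923919-19926360) they covered 2441 and 2134 bp in the mutants and 1808 and 1793 bp in the controls, again without overlap (0.32 ± 0.12 SE, adjusted p = 0.938). At Spry4 (chr18:38600162-38602494), whose region also holds the start of Arhgap26, they covered 1781 and 1751 bp in the mutants and 1974 and 1397 bp in the controls.

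The other signalling pathways each had between 1 and 3 genes with a broad region. The WNT pathway had 3 of 22, all Frizzled receptors: Fzd8 (2702 bp), Fzd2 (2179 bp) and Fzd1 (2175 bp). At Fzd2 (chr11:102603065-102605243) peaks covered 2179 and 1948 bp in the mutants and 1396 and 1019 bp in the controls, without overlap (log2 difference 0.77 ± 0.17 SE, limma adjusted p = 0.869). The TGF-beta pathway had 3 of 17, the corepressors Tgif1 and Skil and the receptor gene Acvr2b. At Tgif1 (chr17:70850603-70853523) peaks covered 1170 and 1690 bp in the mutants and 2401 and 985 bp in the controls, and no base was under peaks of all 4. The hedgehog pathway had 1 of 9, the transcription factor gene Gli3, the BMP pathway 1 of 15, the antagonist gene Grem1, and the Notch pathway 1 of 11, the DNA-binding factor gene Rbpj. The retinoic acid pathway had 1 of 8, Rdh10, which encodes a retinol dehydrogenase. Heart and sinoatrial genes, in which Shox2 and Nkx2-5 are known to act, had 2 of 8, the connexin gene Gja1 and the transcription factor gene Mef2c.

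Axon guidance genes had broad regions in 7 of 29 (24.1%): the receptor genes Nrp1, Robo2, Epha4, Ephb2, Plxna1 and Plxna2 and the ephrin gene Efna5. At Nrp1 (chr8:128356954-128359699) peaks covered 2600 and 2465 bp in the mutants and 2498 and 1303 bp in the controls. At Robo2 (chr16:74410974-74413385) they covered 2127 and 1241 bp in the mutants and 2276 and 2054 bp in the controls. At Efna5 (chr17:62881257-62883553) they covered 798 and 2297 bp in the mutants and 1205 and 764 bp in the controls, so that mutant 2 alone gave the full width. Genotypes overlapped at these genes.

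Lists of structural and general genes lay on both sides of the share of all genes. Extracellular matrix genes had 3 of 25, the fibrillin genes Fbn2 and Fbn1 and the collagen gene Col5a2, and chondrogenic genes 1 of 4, the hormone receptor gene Pth1r. Osteogenic genes had 0 of 3. Cell cycle genes had 3 of 24 (Cdk6, the inhibitor gene Cdkn2c and the cyclin gene Ccne2), and chromatin and Polycomb genes 3 of 33 (Kmt2a, the remodeller gene Arid1b and the DNA methyltransferase gene Dnmt3a). Immediate early genes had 2 of 37, Gadd45b and Egr1, and ubiquitously used genes 2 of 30, the chaperone gene Hsp90ab1 and Hnrnpa2b1. Ribosomal protein genes, of which 62 of 65 had a shared region at the start, had 1 broad region (1.61%; median width 1098.5 bp). That one, at Rpl7, is shared with Rdh10, and the promoter table does not hold Rpl7, so either gene end counted as its start. Among markers of other cell types a broad region was found at Esrp1, an epithelial splicing factor gene. That was 1 of 4 epithelial genes with a shared start. Neuronal genes had 0 of 6, Schwann and glial 0 of 3, skeletal muscle 0 of 1 and endothelial 0 of 3. Blood and immune genes had 0 of 1, and pericyte and smooth muscle genes 0 of 4. Counts this small cannot be told from the share of 5.14% over all genes. At Esrp1 peaks covered 2107 and 2002 bp in the mutants and 2062 and 1917 bp in the controls.

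**Figure D4:**
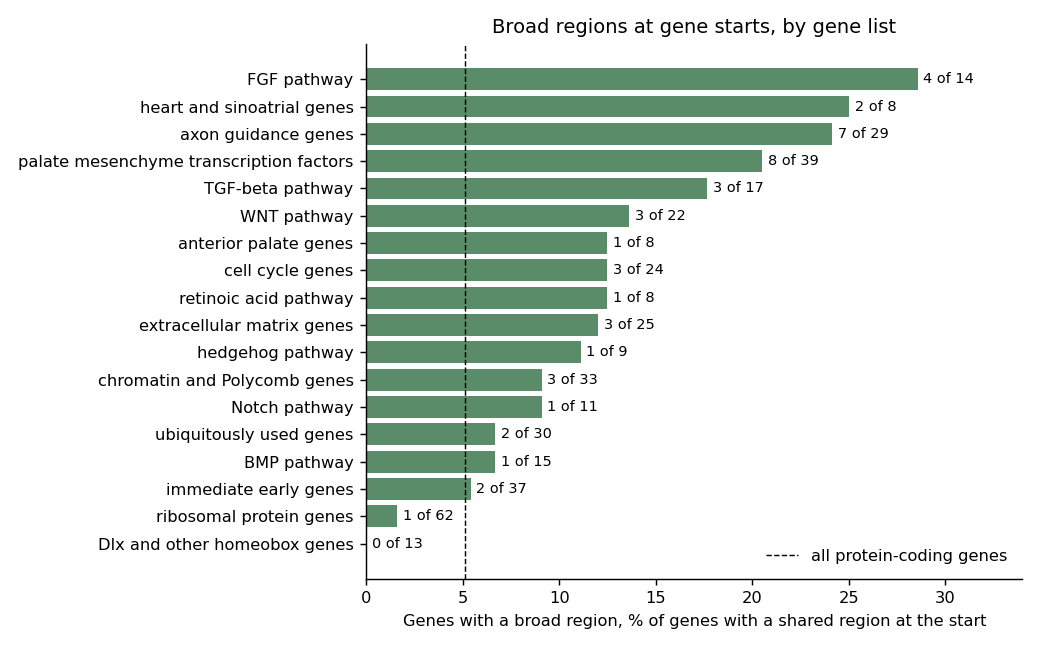
Bars give the percent of genes with a broad region among genes with a shared region at the start, for lists with 8 or more such genes, with the counts printed beside them. The dashed line is the share over all protein-coding genes, 5.14%; the FGF pathway is at 28.6% and ribosomal protein genes are at 1.61%.

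Genotype was compared at each region by the bases under a library's peaks, on a log2 scale centred on each library's median over shared regions. No broad region was called at an adjusted p under 0.05 in either direction (limma, Benjamini-Hochberg over 18904 shared regions), where 0% of all shared regions were called each way. At an unadjusted p under 0.05, 28 broad regions (4.39%) were wider in mutants, against 2.82% of all shared regions, and 9 (1.41%) were wider in controls, against 2.33%. The lowest adjusted p was 0.405. In simulated data the same fit called 38 of 100 regions given a log2 difference of 1 and 78 of 100 given 2. The lack of a call therefore does not show equal width. The median log2 difference, mutant minus control, was 0.0231 over the broad regions, with the middle 50% between −0.06 and 0.13, and −0.00414 over all shared regions. It was above 0 in 358 broad regions (56.1%) and in 48.7% of all shared regions. Without control 2 the broad median was 0.00464, and with 2000 bp required in each library it was −0.00574.

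Orders without overlap were about as frequent in broad regions as elsewhere. Covered width was higher in both mutants than in both controls in 123 broad regions (19.3%), against 16.0% of all shared regions, and higher in both controls in 89 (13.9%), against 17.7%. Both orders together took 212 regions (33.2%). The pairings that mix genotypes took 217 and 209. By the rank of −log10 p among shared regions, 91 broad regions (14.3%) stood higher in both mutants, against 17.6% of all shared regions, and 126 (19.7%) in both controls, against 18% of all shared regions. By the rank of fold enrichment the direction turned: 109 (17.1%) were higher in both mutants and 94 (14.7%) in both controls, against 17.4% of all shared regions each way. Similarity of covered bases within the broad regions, as a Jaccard index, was 0.845 between the mutants and 0.818 between the controls. Between genotypes it ran from 0.816 to 0.846, so libraries of 1 genotype were no more alike than libraries of different genotypes.

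The 3 broad regions with the smallest p among those wider in mutants were at Tmtc1, Ncor1 and Tln2. At Tmtc1, an enzyme gene of protein mannosylation (chr6:148442752-148445054), peaks covered 2294 and 2284 bp in the mutants and 1079 and 1059 bp in the controls. Both mutants covered nearly the whole region and both controls less than 50% of it (log2 difference 1.08 ± 0.09 SE, limma adjusted p = 0.405). Only the mutants covered 2000 bp or more at Tmtc1, so it became a member, with its bounds, through them. At Ncor1 (chr11:62456577-62458900) they covered 2160 and 2268 bp in the mutants and 1213 and 1099 bp in the controls (0.92 ± 0.10 SE, adjusted p = 0.582). The groups did not overlap, but with the regions rebuilt without mutant 2 the difference was 0.30. Ncor1, too, reached 2000 covered bp in the mutants only. At Tln2, which encodes a talin that links integrins to actin (chr9:67632471-67634476), they covered 1732 and 1872 bp in the mutants and 921 and 973 bp in the controls (0.91 ± 0.10 SE, adjusted p = 0.582). No base there lay under peaks of all 4 libraries. With equal peak numbers the Tln2 difference was 0.37, and without mutant 2 there was no such region to test. Fold enrichment did not follow width at each of these 3 regions. At Ncor1 it was 5.95 and 6.35 in the mutants and 6.51 and 7.66 in the controls, higher in both controls. At Tmtc1 the genotypes overlapped, with 4.66 and 4.99 in the mutants and 5.998 and 4.39 in the controls. At Tln2 it was 5.93 and 6.14 in the mutants and 5.65 and 4.02 in the controls, higher in both mutants. These fold differences were not tested.

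Among the broad regions with the smallest p that were wider in controls were those at Slc12a2 and Klf13. At Slc12a2, which encodes a cotransporter of sodium, potassium and chloride (chr18:57877861-57880044), peaks covered 1284 and 1418 bp in the mutants and 2109 and 2140 bp in the controls (log2 difference −0.68 ± 0.10 SE, limma adjusted p = 0.691). Both mutants stood well below both controls. At Klf13, a zinc finger factor gene (chr7:63937252-63939922), they covered 1572 and 1796 bp in the mutants and 2671 and 2477 bp in the controls (−0.64 ± 0.11 SE, adjusted p = 0.691). With the upper 50% of peaks the Klf13 difference was −0.31. At Slc12a2 and Klf13 only the controls covered 2000 bp or more, so both regions became members through the controls. The largest log2 difference of any broad region, 1.56 ± 0.42 SE, was at Rims2, a synaptic vesicle gene (chr15:39196684-39199625), with 2926 and 2374 bp in the mutants and 578 and 1346 bp in the controls. Rims2 became a member through the mutants, the only libraries with 2000 bp or more covered. The spread within each genotype was wide there, and the region was singled out after its values were seen.

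**Figure D5:**
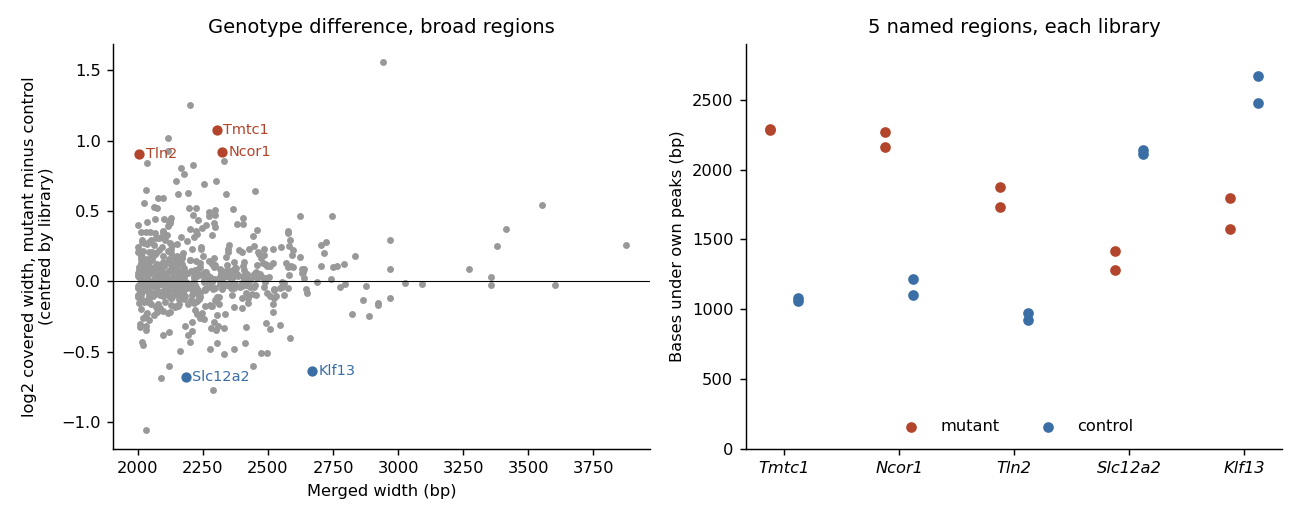
The left panel plots the centred log2 difference in covered width, mutant minus control, against merged width in bp for the 638 broad regions, with 5 regions of small p named (red, wider in mutants; blue, wider in controls). The right panel gives bases under peaks in each library at those 5 regions; mutants and controls do not overlap at any of them, and the adjusted p is 0.405 or higher.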

How the data were processed

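ATAC-seq peak lists of 2 mutant and 2 control libraries were used, grouped by the genotypes in the labels. Nothing in the labels tells whether a genotype's libraries were separate pools of embryos, so p-values may measure technical spread only. The authors deposited 1 list per library, without a header, in 10 columns laid out as narrowPeak, and per the submitters' processing notes the positions are in mm10. The aligner, the peak caller and the handling of the transposase offset are steps not given in the sources used here. Per peak, the authors deposited a score, a fold enrichment, a −log10 p-value and a −log10 q-value. The fold, a ratio, was recognised from its deposited values, relative to an unnamed background. These values were used only to rank or describe peaks within a library, and the score and q-value entered no result. Peaks in the lists made up 23.8% to 27.8% of the peak numbers in their names, so others had been removed, in a way not given in the sources used here. Since read depth is unknown, peaks carry no counting error.

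Covered width is the number of bases of a region under a library's own peaks. It was tested with limma 3.58.1 in R 4.3.3 on log2 values over all 18904 shared regions, with genotype as the only term, Benjamini-Hochberg adjustment and a threshold of 0.05; the fit was first tested on simulated data. Other values came from Python 3.11.15 with pandas 2.3.3, numpy 2.4.6 and SciPy 1.17.1. Gene starts came from the RefSeq promoter table (GRCm38.p6). For protein-coding genes it does not hold (4354 of 21627, with those of chromosome 18) either gene end counted as a start, since the gene table gives no strand. The CpG ratio is the number of CG dinucleotides times the length, over the product of the C and G counts. All 696 genes of the 29 lists matched the gene table. The members and lists were chosen with earlier results of these data known.

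Named are the 12 widest regions, up to 3 genes per list with the widest broad region, the 3 regions per direction with the smallest p (6 per direction had any been called; 1 of the 6 regions is not reported here), 3 regions on either side of the threshold, Shox2 and Nkx2-5. Other genes, among them the further members of a list, Arhgap26, Rai1, Clstn1, Rims2 and Tmub1, were named after their values were seen. Alternatives varied the width, the peaks used, the merging, the libraries, the centring and the fit. No genome sequence was used, so sequences of whole regions are not analysed here.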

Additional observations from a re-analysis of the deposited data

How the results depend on the processing

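The number of broad regions was 3602 at a width of 1500 bp, 10 at 3000 bp, 151 with 2000 bp required in each library and 407 with the upper 50% of peaks, and 529 to 602 with 1 library left out. No region was called in either direction under any of the 14 alternatives to the limma fit, some of which leave 1 library in a genotype. Broad regions with an unadjusted p under 0.05 numbered 37 (5.80%) as reported and 62 (9.72%) with a variance trend and robust estimation. As reported, 2.82% of all shared regions were wider in mutants and 2.33% in controls at that threshold. The share over all shared regions was not computed for the other fits. Replicate numbers are not shown to pair libraries: deviations of mutant 1 and control 1 from their genotype means correlated at r = 0.0222 over shared regions and 0.0929 over the broad regions, in 2 pairs only. With the replicate number as a block 0 regions were called, 40 broad regions (6.27%) had an unadjusted p under 0.05 and the lowest adjusted p was 0.936. The share with a gene start was 84.8% with 2000 bp required in each library and 85.3% with a start within 1 kb. The mean CpG ratio was 0.826 at 3000 bp and 0.823 with the upper 50% of peaks. The median width difference was −0.00115 at 1500 bp, 0.0587 at 3000 bp, −0.00574 with 2000 bp required in each library, 0.0453 without centring and 0.00464 to 0.0255 with 1 library left out, the lowest without control 2. Regions ranked higher in both mutants numbered 569 of 3602 at 1500 bp and 1 of 10 at 3000 bp. They numbered 16 of 151 with 2000 bp required in each library and 59 of 407 with the upper 50% of peaks. The share over all shared regions was 17.6% under the first 3 of these settings and 17.4% under the last. Those ranked higher in both controls numbered 717, 2 and 36 under the first 3, against 18% of all shared regions. With 1 library left out the counts for mutants and controls were 149 to 180 and 189 to 228, since an order of 2 libraries against 1 is easier to meet (32.8% to 35.8% of all shared regions). The difference in the share of peak bases turned from −0.407 to 0.108 with equal peak numbers, and ran from −0.711 to 0.00265 with 1 library left out, the highest without control 2. The cause of these shifts was not tested, other than where fewer regions or libraries enter by construction.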

Other observations

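Broad regions were found on all of the chromosomes used, and their share of shared regions ran from 2.43% on chromosome 2 to 5.12% on chromosome 18. Those with a protein-coding start stood further from other shared regions: the nearest was a median of 45.2 kb away, against 29.5 kb for narrower regions with a start. For regions inside or outside genes the distances were 35.2 kb for broad and 35.0 kb for narrower ones.

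Small RNA genes lay in some of the broad regions. Of 115 tRNA genes in shared regions, 14 (12.2%) lay in 7 broad regions, and 4 of these 7 held no protein-coding start. A tRNA gene was found in 1.10% of broad regions and 0.434% of all shared regions. Wider regions cover more sequence, which these shares do not allow for. A region on chromosome 19 (chr19:12010219-12012704), 17.3 kb from Osbp, held 4 tRNA genes. Its peaks covered 2335 and 1615 bp in the mutants and 2329 and 1208 bp in the controls, so the libraries numbered 1 were the wider ones. A region on chromosome 3 (chr3:96499558-96501861), 24.5 kb from Hjv, also held 4. Genes of snoRNA, snRNA and miRNA numbered 12 in 11 broad regions, which is 7.59% of the 158 in shared regions. Regions with such a gene made up 1.72% of broad and 0.767% of all shared regions. There were 15 broad regions that overlapped no annotated gene. Several broad regions without a protein-coding start lay at mesenchymal transcription factor genes and were picked after their values were seen. One at the start of a long noncoding RNA gene at Meis2 (chr2:116065439-116067837) had 2306 and 2160 bp under peaks in the mutants and 1971 and 1834 bp in the controls, without overlap. One inside Nfia (chr4:97647465-97649748) had 1956 and 2165 bp in the mutants and 1977 and 2082 bp in the controls. One inside Tcf4 (chr18:69612521-69614816) had 2296 and 904 bp in the mutants and 1541 and 1573 bp in the controls, so the mutants differed most from each other.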
